A study of Homo sapiens with 12 samples.

Results

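Proteasome genes were followed in 12 RNA-seq libraries of PC3, an established line of human prostate cancer cells. The members are the protein-coding genes with a symbol made of PSMA, PSMB, PSMC, PSMD, PSME, PSMF or PSMG and a number, together with POMP. RefSeq lists 49 such genes, and 48 of them had rows among the 43613 genes with linear transcripts in the deposited table; PSMB9 had none. A filter on low counts kept 46 of the 48, and PSMB8 and PSMB11 did not pass it.

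The 12 libraries came from wild-type PC3 cells in 4 groups of 3. BLANK received PBS, AgNPs received silver nanoparticles, DOC received an agent that the labels give only by this abbreviation, and COM received AgNPs and DOC together. The labels state no dose, exposure time or batch, and nothing in them ties a replicate to a culture of its own. The p-values therefore measure the spread among libraries, which may be technical. RNA of bulk cultures was read, so less RNA per cell and fewer cells with a given RNA cannot be told apart.

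The proteasome is the protease complex that degrades proteins tagged with ubiquitin. Its barrel, the 20S core, has outer rings of alpha subunits and inner rings of beta subunits, some of which carry the catalytic sites. The 19S cap has a ring of ATPases that unfold substrates and non-ATPase subunits that bind and trim ubiquitin chains. Other caps, the PSME proteins, open the core without ubiquitin, and dedicated chaperones assemble core and cap. Cells that lose proteasome capacity are known to raise subunit genes together through the transcription factor NFE2L1.

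Summed linear counts ranged from 22573481 to 22769479 in BLANK, from 13049868 to 13362290 in AgNPs, from 18603100 to 19421873 in DOC and from 10996446 to 11069928 in COM, so BLANK was read most deeply and COM least. The floor of 3 counts corresponded to 0.132 to 0.273 CPM (counts scaled to a common library size). Between replicates of a group the chi-square of the counts per degree of freedom ranged from 1.46 to 4.76, and the highest values involved BLANK replicate 1 and DOC replicate 1. Markers moved with the groups. The 5 epithelial markers (KRT8, KRT18, EPCAM, CDH1, HOXB13) summed to 778 to 791 CPM in BLANK, 737 to 744 in AgNPs, 658 to 712 in DOC and 599 to 636 in COM, and against BLANK 1 was higher and 1 lower in AgNPs, 2 lower in DOC, and 1 higher and 3 lower in COM. HOXB13 fell by 0.32 in AgNPs, 0.29 in DOC and 0.87 in COM, and KRT8 rose by 0.20 in AgNPs and 0.22 in COM. EPCAM did not exceed 12.2 CPM and CDH1 did not exceed 3.91 CPM. The fibroblast markers with rows (DCN, LUM, COL1A1, PDGFRB) summed to 14.9 to 16.1 CPM in BLANK, 15.6 to 19 in AgNPs, 15.9 to 24.3 in DOC and 18.1 to 23.2 in COM. The immune markers PTPRC and CD14 summed to 0.31 to 0.405 CPM in BLANK and 0.454 to 1.37 in COM. Of these low markers PDGFRB and CD14 were higher in COM, by 1.39 and 1.54, while PTPRC, DCN and LUM did not exceed 0.103 CPM in any library. PDGFRB rested on 13, 17 and 13 counts in COM against 12, 9 and 12 in the more deeply read BLANK. CD14 rested on 14, 4 and 14 counts in COM against 9, 7 and 6 in BLANK. Its COM replicate 2, at 0.363 CPM, lay inside the BLANK range. The part of these markers in the results was not tested. KLK3, CD3E and MS4A1 were not analysed here.

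Proteasome genes together took 0.465% ± 0.00989 of the linear counts in BLANK, 0.482% ± 0.00924 in AgNPs, 0.446% ± 0.00915 in DOC and 0.461% ± 0.00141 in COM (SD, n = 3 each). The 3 AgNPs libraries, at 0.476% to 0.492%, lay above the 3 BLANK libraries, at 0.454% to 0.473%. The DOC libraries, at 0.441% to 0.457%, overlapped with BLANK, as did COM. The summed share therefore moved little. It was taken of raw library totals, without the scaling factors that the tests below use. The changes of each member described here are of less than 2-fold.

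Levels per transcript length (FPKM) showed which subunits were abundant in untreated PC3 cells. The highest in BLANK was PSMB4, a structural beta subunit, at 202.5 ± 5.81 FPKM (SD, n = 3). The catalytic subunits PSMB7 and PSMB5 followed at 168 ± 1.05 and 155 ± 5.54 FPKM. The alpha subunit PSMA7 was at 146.5 ± 15.7 FPKM and its ring partner PSMA6 at 141 ± 0.405 FPKM, and these neighbours did not differ beyond the spread of PSMA7. Median levels by role were 99.9 FPKM for the 8 alpha genes, 95.7 for the 7 constitutive beta genes, 63.6 for the 6 ATPases, 57.8 for the 11 non-ATPase genes, 51.6 for the 5 activator and inhibitor genes and 27.9 for the 8 assembly factors. Core genes thus stood above cap genes and assembly factors at the median, with wide ranges inside each role.

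Members that other tissues use stood at the low end. PSMB10, a catalytic beta subunit of the immunoproteasome, was at 9.53 ± 0.85 FPKM in BLANK, and PSMA8, an alpha subunit known from testis, at 2.7 ± 0.178 FPKM. All PSMA8 counts came from a single non-RefSeq transcript, so its value is uncertain. PSMB8, the immunoproteasome partner of PSMB10, had 0 CPM in 11 libraries and 0.0904 CPM, a single count, in COM replicate 1. PSMB11, the thymus subunit, did not exceed 0.0913 CPM in any library, below the floor of 3 counts. PSMB9, the other inducible subunit, has no value here.

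**Figure D1:**
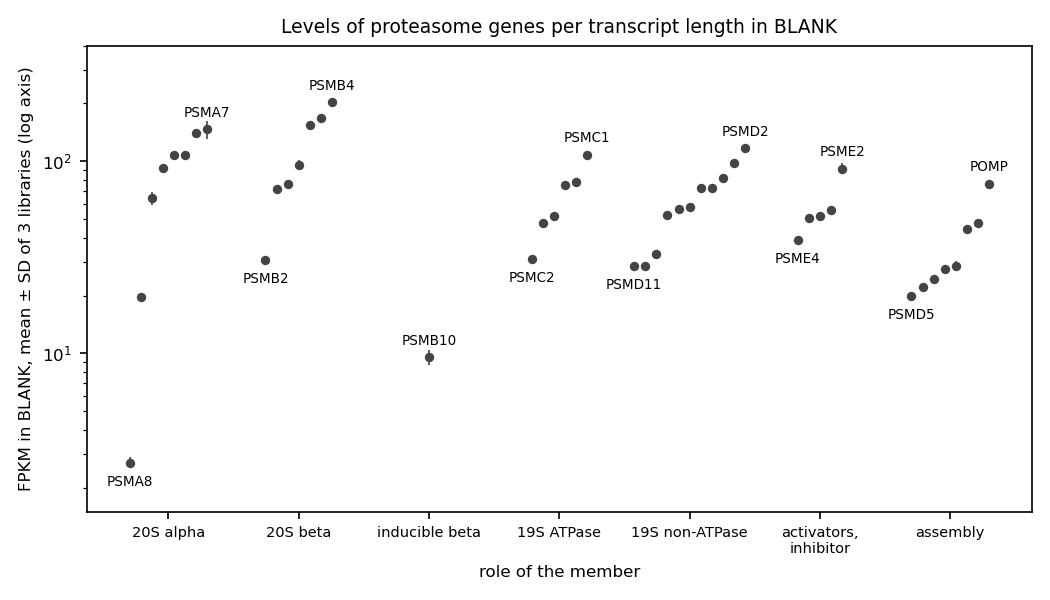
Mean FPKM ± SD of 3 BLANK libraries (log axis) for each proteasome gene above 1 FPKM, by role on the x axis, with the lowest and highest of each role named. PSMB4 is the highest at 202.5 FPKM and PSMA8 the lowest drawn at 2.7 FPKM; PSMB8 and PSMB11 lie below the axis and are not drawn.

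The first comparison asked what silver nanoparticles alone did to these genes. With AgNPs, 12 of 46 members (26.1%) were higher than in BLANK and 6 (13%) were lower, and 28 did not pass the test. Among all 19986 genes tested, 14.9% were higher and 16% lower, and among 13056 protein-coding genes 17.7% were higher and 21.9% lower. The median log2 difference of the members was 0.01, as was that of all genes, and that of protein-coding genes was -0.01. Differences were fitted with edgeR's quasi-likelihood test over all 12 libraries and are given as log2 ± SE, with p-values adjusted by Benjamini-Hochberg over all genes tested and called below 0.05. The 12 higher members were subunits of the core or the 19S cap, and the 6 lower ones were an inducible subunit, an activator, an inhibitor and 3 assembly factors.

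Of the ATPase genes of the 19S cap, 5 of 6 were higher (83.3%, against 14.9% of all genes and 17.7% of protein-coding genes) and none was lower. PSMC4, one of these ATPases (chromosome 19, 39971165 to 39981764), was at 92.9, 94.5 and 95.8 CPM in BLANK, at 108, 105 and 109.8 in AgNPs, at 90.4, 88.6 and 91.1 in DOC and at 107, 104 and 98.9 in COM. All 3 AgNPs libraries lay above all BLANK and DOC libraries. The difference of AgNPs from BLANK was 0.19 ± 0.04 (adjusted p = 8.42e-05). PSMC1 (0.17), PSMC2 (0.14), PSMC3 (0.13) and PSMC6 (0.12) rose too. PSMC5 did not pass, at -0.04 ± 0.04 (adjusted p = 0.562). The number of ATPases called higher was 2 without AgNPs replicate 3, where PSMC2, PSMC3 and PSMC6 lost their calls. It was 3 without BLANK replicate 1, with DESeq2 or without the filter on low counts, where PSMC3 and PSMC6 lost theirs, and the shares of the roles were not tested against each other.

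Of the 11 non-ATPase genes, PSMD3, PSMD1 and PSMD14 were higher with AgNPs (27.3%, against 14.9% of all genes and 17.7% of protein-coding genes). PSMD3, a scaffold subunit of the lid (chromosome 17, 39980807 to 39997959), was at 111, 109 and 112 CPM in BLANK, 122, 133 and 126 in AgNPs, 108, 101 and 102 in DOC and 115.5, 126 and 121 in COM. Its difference was 0.19 ± 0.04 (adjusted p = 0.00012), and no AgNPs library overlapped with BLANK. PSMD1, a large base scaffold, rose by 0.16 and PSMD14, the deubiquitinase of the lid, by 0.16. The ubiquitin receptor PSMD4 was at 86.1, 90.5 and 92.8 CPM in BLANK and at 98.9, 99.7 and 92.9 in AgNPs, a difference of 0.11 ± 0.05 that did not pass (adjusted p = 0.125). PSMD11, a lid subunit linked to proteasome assembly, was at 113, 108 and 109 CPM in BLANK and at 114, 115 and 120.3 in AgNPs, and its difference of 0.08 ± 0.04 did not pass either (adjusted p = 0.0724).

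In the core, 2 of 8 alpha genes (25%) and 2 of 7 constitutive beta genes (28.6%) were higher with AgNPs, and none was lower. Among all genes 14.9% were higher, and among protein-coding genes 17.7%, so these small counts were not far from those shares. PSMA1, an alpha subunit (chromosome 11, 14504876 to 14643662), was at 125, 125 and 121 CPM in BLANK, 143, 138 and 151 in AgNPs, 117, 112 and 113 in DOC and 136, 139 and 144 in COM. It rose 1.16-fold, or 0.22 ± 0.04 (adjusted p = 6.66e-06), the largest rise among the members in this comparison. PSMB4 (chromosome 1, 151399573 to 151401937) was at 173, 177 and 184 CPM in BLANK, 199.9, 199.7 and 203 in AgNPs, 167, 162 and 159.6 in DOC and 192, 190.4 and 197 in COM. Its difference was 0.17 ± 0.03 (adjusted p = 3.81e-05), with AgNPs above BLANK in every library. PSMA3 rose by 0.12 and PSMB2 by 0.11, whereas the catalytic subunit PSMB5 stood at 0.03 ± 0.04 (adjusted p = 0.683).

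Of the 8 assembly factors, 3 were lower with AgNPs (37.5%, against 16% of all genes and 21.9% of protein-coding genes), none was higher and 5 did not pass, at a median of -0.14. PSMG3, a chaperone of the alpha ring (chromosome 7, 1567332 to 1570032), was at 38.6, 41.0 and 43.5 CPM in BLANK, 30.8, 35.1 and 35.3 in AgNPs, 39.0, 37.8 and 36.8 in DOC and 28.6, 29.5 and 29.3 in COM. The AgNPs libraries all lay below BLANK, and its difference was -0.28 ± 0.06 (adjusted p = 0.000207). PSMG1, which also guides alpha ring assembly, fell by 0.23, and PSMD9, a chaperone of the cap base, fell by 0.23. POMP, the chaperone of beta ring assembly, was at 50.9, 53.3 and 50.8 CPM in BLANK 56.9, 49.0 and 51.7 in AgNPs, 54.5, 49.0 and 49.9 in DOC and 49.0, 46.9 and 48.7 in COM. It did not pass the test in any comparison with BLANK, at 0.02 ± 0.05 in AgNPs (adjusted p = 0.775), -0.02 ± 0.05 in DOC (adjusted p = 0.868) and -0.10 ± 0.05 in COM (adjusted p = 0.129), and only 28.6% of its counts came from RefSeq transcripts, so its value is uncertain.

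Among activators and the inhibitor, PSME2 and PSMF1 were lower with AgNPs. PSME2, which forms an activator cap with PSME1 (chromosome 14, 24143365 to 24146610), was at 63.4, 70.7 and 71.9 CPM in BLANK, 58.8, 60.0 and 59.3 in AgNPs, 67.5, 55.4 and 60.4 in DOC and 53.4, 51.5 and 50.4 in COM. Its difference with AgNPs was -0.21 ± 0.06 (adjusted p = 0.00646), and the groups did not overlap. PSMF1, known as an inhibitor of the core in vitro, fell by 0.21, and 50.6% of its counts came from RefSeq transcripts. PSMB10 (chromosome 16, 67934506 to 67936850) was at 8.51, 9.66 and 8.25 CPM in BLANK, 6.91, 7.68 and 7.05 in AgNPs, 7.40, 6.79 and 7.98 in DOC and 5.42, 5.35 and 5.48 in COM. Its fall with AgNPs, -0.29 ± 0.11 (adjusted p = 0.0421), was lost in 8 of 23 alternative analyses, among them each one that left out an AgNPs library.

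The number of members higher with AgNPs was 7 without AgNPs replicate 3, and 8 with DESeq2 or without the filter on low counts. In all 23 alternatives 7 of the 12 rises (PSMA1, PSMB4, PSMC1, PSMC4, PSMD1, PSMD3, PSMD14) and 5 of the 6 falls (all but PSMB10) kept their calls.

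**Figure D2:**
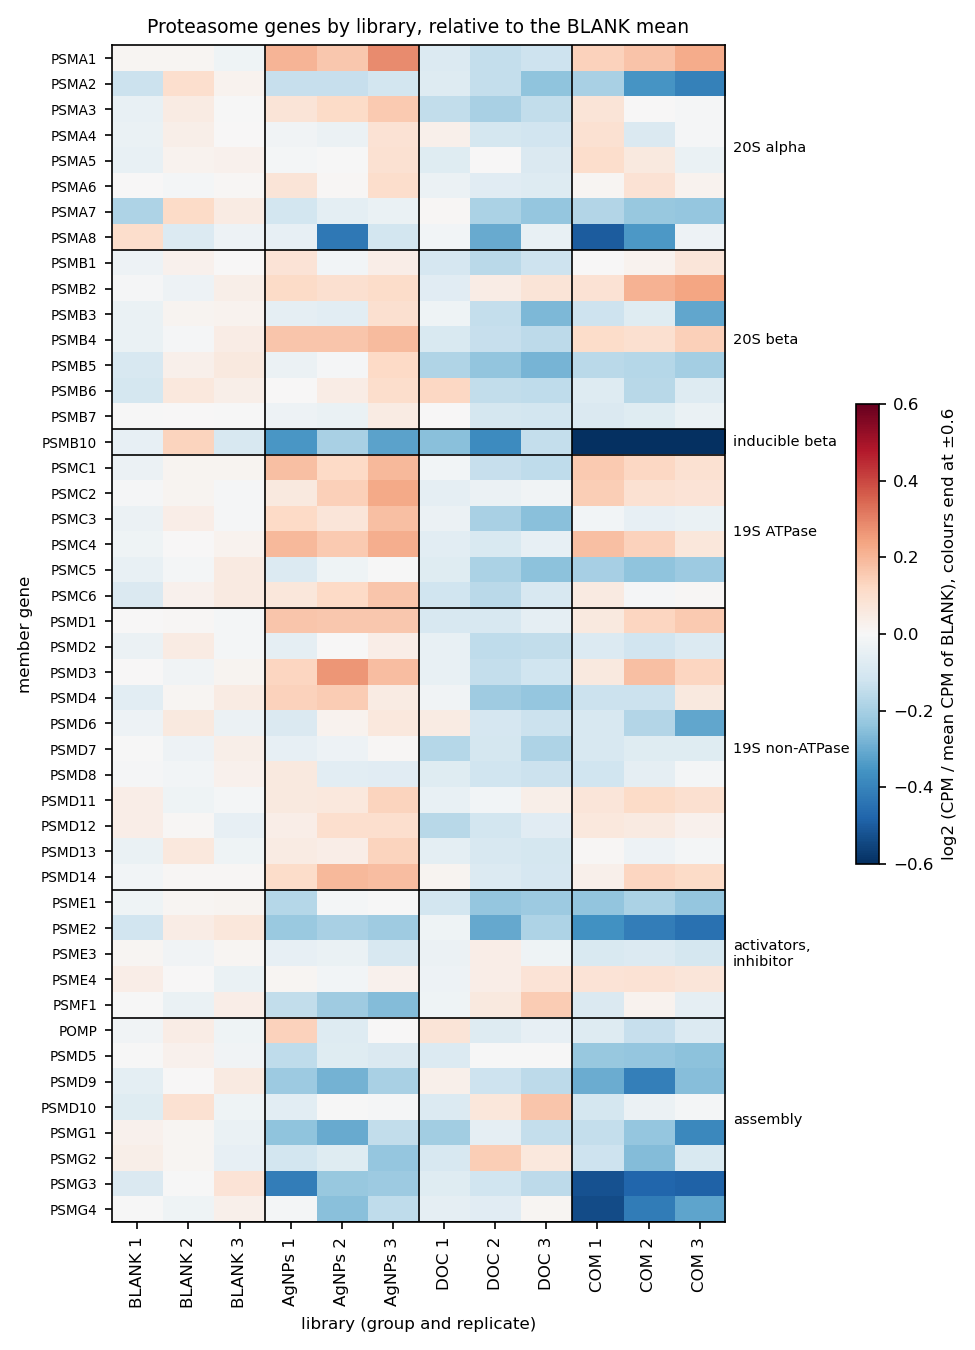
Each row is 1 of the 46 tested proteasome genes, in blocks by role, and each column is a library. Colour gives log2 of CPM over the BLANK mean, red above and blue below, ending at 0.6 in either direction. The ATPase block is mostly red in AgNPs, most core and cap rows are pale blue in DOC, and PSMB10, PSMG3 and PSMG4 are among the darkest in COM.

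Short promoter stretches were read for the members that moved with AgNPs, since NFE2L1 and its relative NFE2L2 bind antioxidant response elements. The core of that element, TGACNNNGC, was searched on both strands in the 250 bases before each RefSeq start. It was found in 13 of 52 member windows (25%), from 43 of the 49 members with an entry, against 10.9% of 35116 windows of all genes and 11.2% of 22199 windows of protein-coding genes. PSMA7, PSMB1, PSMB6, PSMB7, PSMD4 and PSMG3 had no entry. The sites of the 4 members that both held the motif and were called with AgNPs are printed 5′ to 3′ with the motif in capitals, to show which bases the count rests on (RefSeq, build GRCh38.p14).
PSMD3, chr17:39980760-39980788, plus strand, higher with AgNPs: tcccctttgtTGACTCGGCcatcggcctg
PSMD9, chr12:121888678-121888706, plus strand, lower with AgNPs: cggcttccggTGACCCAGCtccgccctaa
PSMD9, chr12:121888631-121888659, minus strand, lower with AgNPs: gcgcctgtggTGACCCGGCaggagtagcg
PSME2, chr14:24146767-24146795, minus strand, lower with AgNPs: ccctggactgTGACCCAGCcagcaccgcc
PSMG1, chr21:39183616-39183644, minus strand, lower with AgNPs: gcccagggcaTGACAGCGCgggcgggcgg
The motif began 37 bases before the start of PSMD3, 102 and 149 before PSMD9, 175 before PSME2 and 183 before PSMG1. Of the 12 tested members with the motif, 1 was higher and 3 were lower with AgNPs. Of the 28 tested members with an entry and no motif, 11 were higher and 2 lower. Among all genes tested, 14.9% were higher and 16% lower, and among protein-coding genes 17.7% were higher and 21.9% lower. Calls were not split by motif over all genes, so these small counts do not show whether the motif matters. A CCAAT box, searched on both strands in the same windows, was in 36.5% of member windows, against 32% of all windows. A match is a description of these letters and not a shown binding site.

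The second comparison asked what DOC alone did. With DOC, 15 of 46 members (32.6%) were lower than in BLANK and none was higher, and 31 did not pass. Among all genes tested, 9.81% were lower and 7.16% higher, and among protein-coding genes 14.2% were lower and 5.77% higher. The count of falls was 8 when only protein-coding genes were tested, 7 with library totals and 5 with limma on FPKM. The median of the members was -0.10, against 0.00 for all genes and -0.03 for protein-coding genes, and only 5 of the 46 differences were above 0. The falls were small, from 0.10 to 0.23 on the log2 scale, and were spread over the alpha genes (2 of 8), beta genes (3 of 7), ATPases (4 of 6), non-ATPase genes (4 of 11) and activators (2 of 5). No assembly factor was called. AgNPs and COM were set against the same 3 BLANK libraries as DOC, so the values of the 3 comparisons are given side by side and no correlation between them is given.

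PSMB5, the catalytic subunit with chymotrypsin-like activity and the target of proteasome inhibitor drugs, fell most among the called members (chromosome 14, 23025851 to 23035220). It was at 155, 168 and 172 CPM in BLANK, 161, 164 and 179 in AgNPs, 145, 140.1 and 136 in DOC and 147, 147 and 143 in COM. All DOC and COM libraries lay below all BLANK and AgNPs libraries. The difference of DOC from BLANK was -0.23 ± 0.04 (adjusted p = 0.000105), a 1.17-fold fall. In the alpha ring, PSMA3 (chromosome 14, 58244843 to 58272004) was at 95.7, 102 and 98.4 CPM in BLANK, 104, 107 and 110.2 in AgNPs, 89.1, 86.2 and 89.2 in DOC and 104, 99.0 and 98.3 in COM. It fell with DOC by 0.16 ± 0.04 (adjusted p = 0.00176), with no overlap, and rose with AgNPs by 0.12 ± 0.04 (adjusted p = 0.0163). The strand of counting is unknown, so reads of PSMA3 and of its antisense RNA PSMA3-AS1 (97.5 to 118 CPM of raw library totals) cannot be told apart.

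In the cap, PSMC5, an ATPase (chromosome 17, 63827431 to 63832019), was at 95.9, 98.1 and 103 CPM in BLANK, 93.5, 97 and 98.8 in AgNPs, 94.1, 86.6 and 83.2 in DOC and 86.2, 83.6 and 84.9 in COM. Its DOC libraries all lay below BLANK, and the difference was -0.17 ± 0.04 (adjusted p = 0.00269). PSMD7, which pairs with the deubiquitinase PSMD14 (chromosome 16, 74296814 to 74306288), was at 120.4, 118 and 123 CPM in BLANK, 117, 118 and 121 in AgNPs, 107, 112 and 106 in DOC and 113, 114 and 115 in COM. It fell by 0.15 ± 0.03 with DOC (adjusted p = 0.00139) and was between BLANK and DOC in COM. Among activators, PSME1 (chromosome 14, 24136194 to 24138962) was at 50.6, 51.8 and 52.0 CPM in BLANK, 45.7, 51.0 and 51.4 in AgNPs, 47.7, 43.8 and 44.2 in DOC and 43.7, 45.2 and 43.8 in COM. It fell by 0.19 ± 0.05 with DOC (adjusted p = 0.00534), and its partner PSME2 fell by 0.17 ± 0.05 (adjusted p = 0.034) with DOC replicate 1 inside the BLANK range.

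PSME4, a nuclear activator, was at 248, 242 and 234 CPM in BLANK, 244, 239 and 245 in AgNPs and 237, 248 and 255.5 in DOC, and did not pass in DOC (0.03 ± 0.03, adjusted p = 0.516). PSMD4 was at 88.6, 77.4 and 76.4 CPM in DOC, -0.15 ± 0.05 from BLANK (adjusted p = 0.0527), and PSMD11 was at 106, 108 and 112 CPM, -0.01 ± 0.04 from BLANK (adjusted p = 0.897). DOC replicate 1 stood above the other DOC libraries for PSMB5, PSMC5, PSMD4 and PSME1, and the count of falls was 21 without it. The count was 15 without BLANK replicate 1, 6 without BLANK replicate 2, 8 without DOC replicate 2 and 10 without BLANK replicate 3 or DOC replicate 3. In every alternative 5 of the 15 falls were kept: PSMA3, PSMB4, PSMB5, PSMD7 and PSME1.

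**Figure D3:**
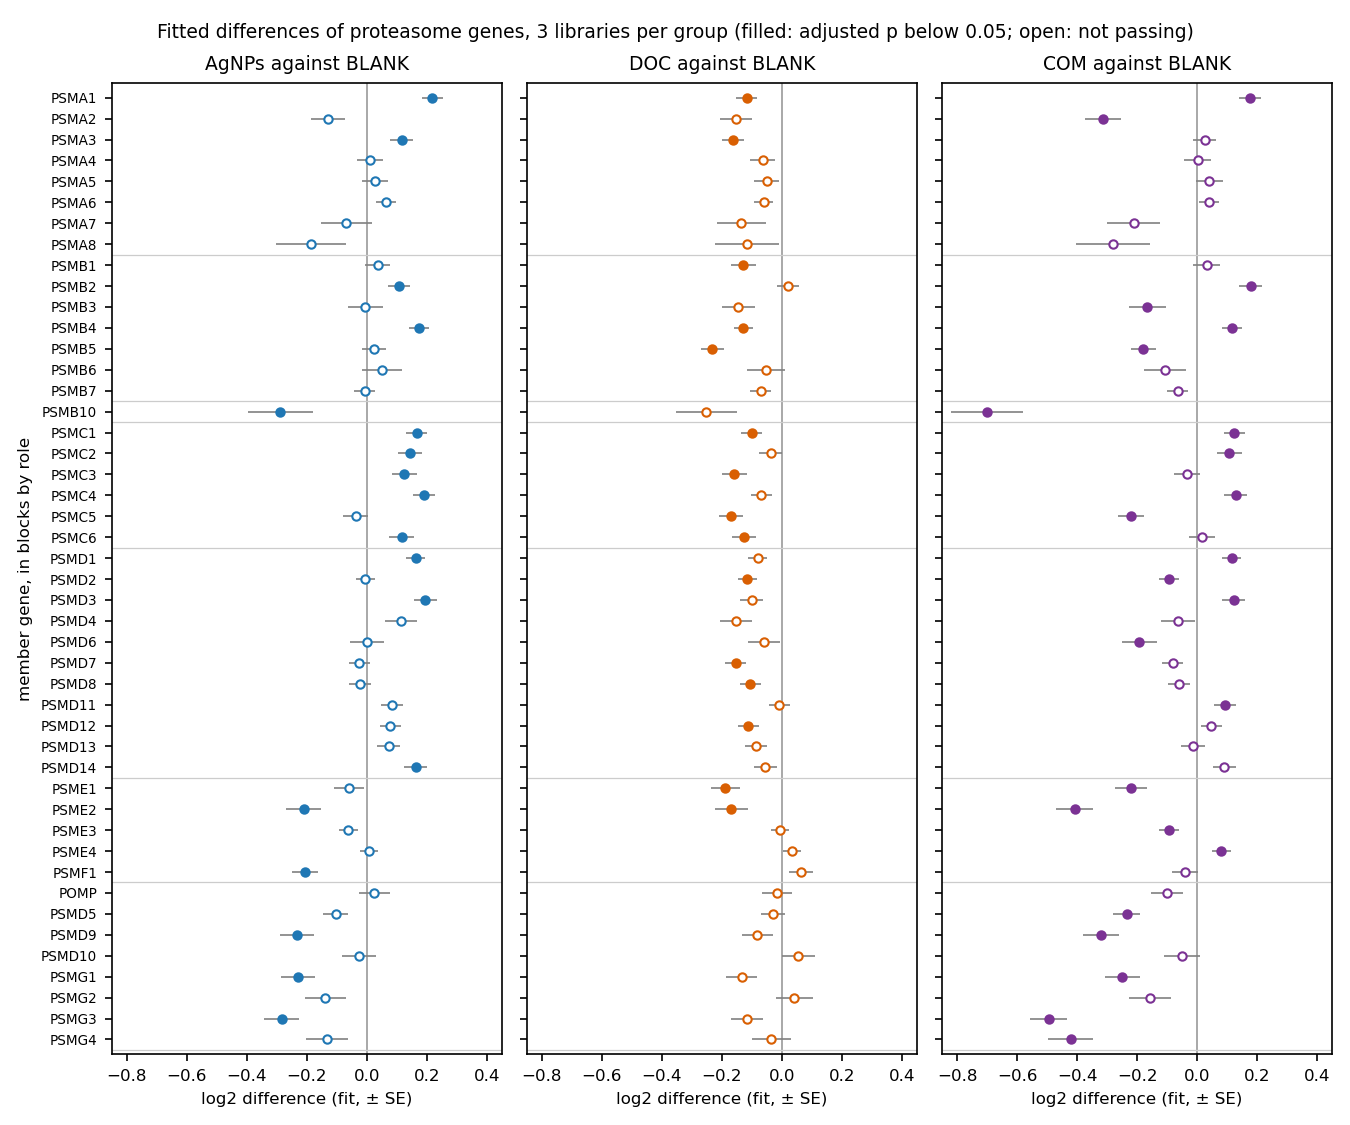
Fitted log2 difference from BLANK with its SE for the 46 tested proteasome genes in AgNPs, DOC and COM, in blocks by role; filled points passed an adjusted p below 0.05 and open points did not. The ATPase block lies to the right of 0 in AgNPs apart from PSMC5, only 5 of the 46 points lie right of 0 in DOC, and PSMB10 reaches -0.70 in COM.

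The third comparison set AgNPs and DOC together against BLANK. In COM, 10 of 46 members (21.7%) were higher and 15 (32.6%) were lower, and 21 did not pass. Among all genes 25.1% were higher and 24.5% lower, and among protein-coding genes 25.4% were higher and 33.5% lower, so the members' shares were near those of protein-coding genes. The median was -0.06 against 0.03 for all genes and -0.03 for protein-coding genes. Split by role, the ATPases had 3 higher and 1 lower of 6, the non-ATPase genes 3 higher and 2 lower of 11, the beta genes 2 and 2 of 7, the alpha genes 1 and 1 of 8, and the activators and inhibitor 1 and 3 of 5. Assembly factors had 5 lower and none higher of 8, with a median of -0.24.

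The largest falls in COM were those of PSMB10, of assembly factors and of PSME2. PSMB10 fell by 0.70 ± 0.12 (adjusted p = 7.46e-06), a 1.63-fold fall, with all COM libraries below every other library. PSMG3 fell by 0.50 ± 0.06 (adjusted p = 2.06e-08), and its COM libraries too lay below every other library. PSMG4, the partner of PSMG3 in a chaperone pair, was at 23.0, 22.6 and 23.5 CPM in BLANK, 22.9, 19.4 and 20.8 in AgNPs, 22.3, 22.0 and 23.2 in DOC and 15.9, 17.2 and 18.5 in COM, a fall of 0.42 ± 0.08 (adjusted p = 1.38e-05). Of its counts 59.0% came from RefSeq transcripts. PSMD9 fell by 0.32, PSMG1 by 0.25 and PSMD5, which chaperones the cap base, by 0.24, while PSME2 fell by 0.41 ± 0.06 (adjusted p = 3.97e-06) and PSME1 by 0.22 ± 0.05 (adjusted p = 0.000691).

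Core and cap genes were divided in COM. PSMA2, an alpha subunit (chromosome 7, 42916861 to 42932174), was at 81.6, 95.5 and 90.4 CPM in BLANK, 81.0, 81.0 and 82.7 in AgNPs, 84.6, 80.8 and 75.4 in DOC and 78.0, 69.9 and 67.4 in COM. Every COM library was below every BLANK library, and the fall was 0.31 ± 0.06 (adjusted p = 0.000153). PSMB5 fell by 0.18 ± 0.04 (adjusted p = 0.000567) and PSMC5 by 0.22 ± 0.04 (adjusted p = 5.52e-05). PSMD6, a lid subunit (chromosome 3, 64010551 to 64024007), was at 45.5, 48.4 and 45.3 CPM in BLANK, 43.7, 47.1 and 48.4 in AgNPs, 48.0, 43.2 and 42.4 in DOC and 43.5, 41.0 and 37.3 in COM. It fell by 0.19 ± 0.06 in COM (adjusted p = 0.00732), a call lost without COM replicate 3 or without BLANK replicate 2.

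The rises in COM stayed small. PSMA1 rose by 0.18 ± 0.04 (adjusted p = 0.000109) and PSMB2, a structural beta subunit, by 0.18 ± 0.04 (adjusted p = 0.000194). PSMC4 rose by 0.13, PSMC1 by 0.12, PSMD3 by 0.12, PSMD1 by 0.12 and PSMB4 by 0.12. PSMD11 was at 115.5, 119 and 117 CPM in COM, 0.09 ± 0.04 above BLANK (adjusted p = 0.0328), and PSME4 was at 255, 256.5 and 254 CPM, 0.08 ± 0.03 above BLANK (adjusted p = 0.0344). PSMD4, at 82.2, 82.1 and 93.5 CPM, did not pass (-0.06 ± 0.06, adjusted p = 0.382).

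The split of calls in COM differed between analyses. It was 10 higher and 15 lower in the edgeR fit with TMM factors, 11 and 15 with library totals, 7 and 18 with RLE factors, 2 and 17 with DESeq2, 2 and 24 without the filter, and 12 and 12 over protein-coding genes only. PSMA1 and PSMB2 were higher, and 11 of the 15 falls were kept, in every alternative. The number of rises was 6 without COM replicate 2.

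**Figure D4:**
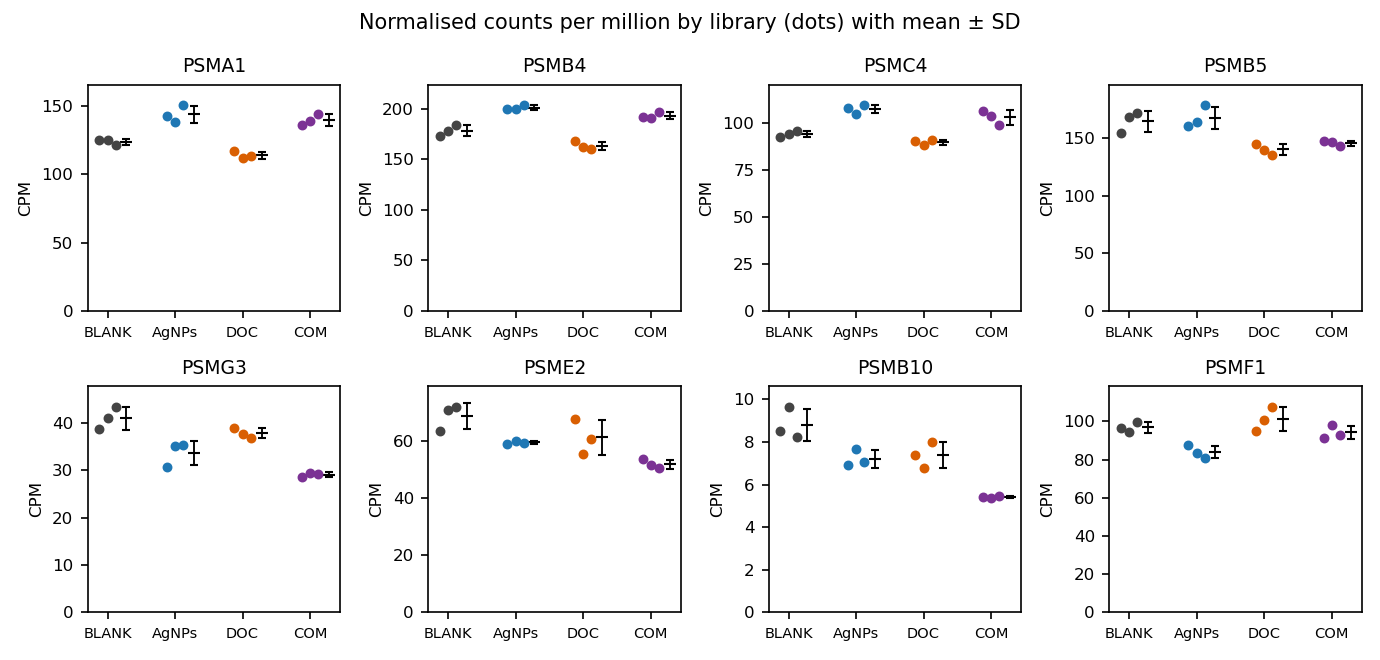
CPM in each library (dots, replicates 1 to 3 from left to right) with the mean ± SD beside them for 8 proteasome genes; the y axes start at 0 and differ between panels. PSMA1, PSMB4 and PSMC4 are highest in AgNPs and COM, PSMB5 is lowest in DOC and COM, and PSMG3, PSME2 and PSMB10 are lowest in COM, where PSMB10 lies between 5.35 and 5.48 CPM.

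The treated groups were also compared with each other. Between the single treatments, 20 of 46 members (43.5%) were higher in AgNPs than in DOC and 4 (8.7%) were lower, against 13.7% and 11.9% of all genes and 18.4% and 14% of protein-coding genes. The median was 0.10 against -0.01 for all genes and 0.01 for protein-coding genes. All 6 ATPases and 8 of 11 non-ATPase genes were higher in AgNPs, with 3 of 8 alpha and 3 of 7 beta genes, and the lower ones were 3 assembly factors and PSMF1. The largest differences were those of PSMA1 (0.34 ± 0.04, adjusted p = 3.25e-09), PSMB4 (0.30 ± 0.03, adjusted p = 2.27e-09) and PSMD3 (0.30 ± 0.04, adjusted p = 2.43e-07). PSMF1 was lower by 0.27 ± 0.04 (adjusted p = 9.17e-06). Of the 20 higher calls 18 were kept in every alternative, and of the 4 lower calls only that of PSMF1; DESeq2 gave 20 higher and 1 lower.

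Adding AgNPs to DOC-treated cells (COM against DOC) gave 16 members higher (34.8%) and 9 lower (19.6%), against 18.1% and 18.5% of all genes and 21.4% and 25% of protein-coding genes. The ATPases had 5 of 6 higher and none lower, and the assembly factors 5 of 8 lower and none higher. PSMA1 was 0.29 ± 0.04 higher (adjusted p = 4.4e-08) and PSMG3 was 0.38 ± 0.06 lower (adjusted p = 8.12e-06). Without the filter on low counts the calls were 10 higher and 12 lower. Adding DOC to AgNPs-treated cells (COM against AgNPs) gave 1 member higher (2.17%) and 13 lower (28.3%), against 9.87% and 12% of all genes and 10.4% and 17.1% of protein-coding genes. PSMF1 was the one higher, by 0.17 ± 0.05 (adjusted p = 0.00891), and the call was lost with RefSeq rows only, without AgNPs replicate 3 and without COM replicate 2. PSMB5 was 0.20 ± 0.04 lower (adjusted p = 0.000708) and PSMC5 0.18 ± 0.04 lower (adjusted p = 0.00303), and PSMC5 was the one fall kept in every alternative. The 13 falls became 5 without AgNPs replicate 2, AgNPs replicate 3, COM replicate 1 or COM replicate 3, and 6 without COM replicate 2.

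The interaction tested whether the DOC effect differed with AgNPs present. No member was called (0 of 46 by edgeR and 0 by DESeq2), against 0.731% of all genes higher and 0.375% lower, and 0.873% and 0.414% of protein-coding genes. PSMG4 was the one member with an unadjusted p below 0.05, at -0.25 ± 0.10 (adjusted p = 0.354). The median over members was 0.01, and single values ran from -0.25 to 0.12.

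Genes that work with the proteasome under other symbols were read from a list of 28, all tested. With AgNPs 12 were higher (42.9%) and 3 lower (10.7%), against 14.9% and 16% of all genes and 17.7% and 21.9% of protein-coding genes. With DOC none was higher and 4 were lower (14.3%), against 7.16% and 9.81% of all genes and 5.77% and 14.2% of protein-coding genes. In COM 12 were higher (42.9%) and 9 lower (32.1%), against 25.1% and 24.5% of all genes and 25.4% and 33.5% of protein-coding genes. The shares lower in DOC and COM were thus near those of protein-coding genes. NFE2L1, the activator of proteasome genes, was at 167, 161 and 167 CPM in BLANK, 242, 229 and 226 in AgNPs, 167, 163 and 167 in DOC and 261, 273 and 268 in COM. Its difference was 0.49 ± 0.03 in AgNPs (adjusted p = 6.25e-15) and 0.70 ± 0.03 in COM (adjusted p = 1.23e-19), and 0.01 ± 0.03 in DOC (adjusted p = 0.931). These rises in the RNA of NFE2L1 exceeded the rise of every member, of which the largest was 0.22. Whether they bear on the member genes was not tested.

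NFE2L2, the oxidative stress relative, rose by 0.55 ± 0.04 in AgNPs (adjusted p = 1.5e-14) and 0.77 ± 0.04 in COM (adjusted p = 4.9e-19). Other genes listed for the control of proteasome transcription did not rise. DDI2 was lower in AgNPs, at -0.21 ± 0.07 (adjusted p = 0.0137), and in COM, at -0.175 ± 0.07 (adjusted p = 0.0342). Neither call was kept in every alternative. NGLY1 did not pass in AgNPs (-0.03 ± 0.06, adjusted p = 0.775) or in COM (-0.04 ± 0.06, adjusted p = 0.628). ADRM1, a ubiquitin receptor of the cap, rose by 0.23 in AgNPs and 0.19 in COM and fell by 0.18 in DOC, and VCP, the ATPase that extracts ubiquitinated proteins, rose by 0.23 and 0.18 and fell by 0.14. ZFAND2A, an arsenite-inducible binder of the 19S cap, was at 18.9, 17.4 and 16.9 CPM in BLANK, 29.1, 28.5 and 29.9 in AgNPs, 19.1, 19.6 and 18.2 in DOC and 40.1, 42.3 and 39.9 in COM. It rose by 0.72 ± 0.07 in AgNPs (adjusted p = 3.25e-11) and by 1.20 ± 0.06, or 2.3-fold, in COM (adjusted p = 5.81e-18).

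AKIRIN2, which brings proteasomes into the nucleus, rose by 0.42 ± 0.06 in AgNPs (adjusted p = 8.15e-07) and 0.73 ± 0.06 in COM (adjusted p = 2.26e-12). UBB, a gene of polyubiquitin, rose by 0.28 and 0.29 in AgNPs and COM, while the ubiquitin activating enzyme UBA1 fell by 0.15 and 0.13 and the ubiquitin ligase UBE3C by 0.18 and 0.13.

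**Figure D5:**
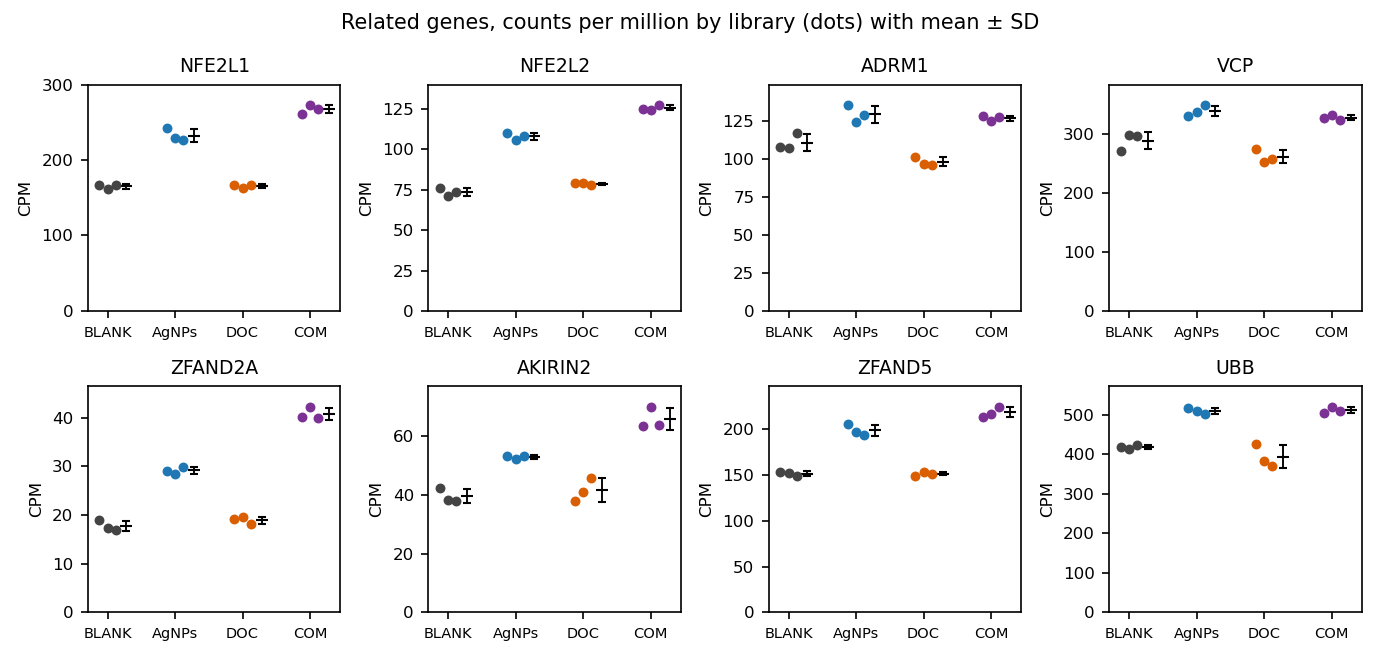
CPM in each library (dots, replicates 1 to 3 from left to right) with the mean ± SD beside them for 8 genes that act on or with the proteasome; the y axes start at 0 and differ between panels. The 8 were picked from the related genes called higher in both AgNPs and COM. All 8 are higher in the 3 AgNPs and 3 COM libraries than in the 3 BLANK libraries. Of all 28 related genes, 13 did not pass and 3 were lower with AgNPs, and 7 did not pass and 9 were lower in COM. ZFAND2A lies between 39.9 and 42.3 CPM in COM against 16.9 to 18.9 CPM in BLANK.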

How the data were processed

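RNA of 12 libraries (4 groups of 3) was analysed from the deposited table of 221796 transcript rows, of which 177700 are linear transcripts. Per the submitters' processing notes, the authors used HISAT2, Bowtie2 2.2.5, RSEM and the build GRCh38, without stating the role of each. The read-count columns were deposited as estimated counts per transcript with no normalisation. The second set of columns was deposited with no unit in its header, and the values of its linear rows were taken as FPKM from their ratio to the counts. Counts of all linear rows were summed per gene and rounded. The strand of counting is not given in the sources used here, so a gene and its antisense partner cannot be told apart.

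For the tests, edgeR 4.0.16 (R 4.3.3) scaled libraries by TMM, kept genes with filterByExpr and fitted all 4 groups in a single robust quasi-likelihood model, giving 19986 genes and a common biological coefficient of variation of 0.0334. CPM values carry the TMM factors. Tests were two-sided. The interaction subtracts the DOC effect in cells without AgNPs from that in cells with them. Floors cover counting error only.

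Members and lists were chosen with earlier results of these data known, and 1 related gene and 1 marker of those lists are not reported here. Values in every library are given for the called member with the largest difference in each role and comparison with BLANK, and for PSMB5, PSMB8, PSMB9, PSMD4, PSMD11, PSME1, PSME4 and POMP. PSMG4 and the related genes with values in every library were chosen after their values were seen. Alternatives were RLE factors, DESeq2 1.42.0, no filter, a minimum of 1 CPM in at least 3 libraries, a replicate block, only the groups compared, RefSeq rows only, limma 3.58.1 on log2(FPKM + 1) and log2(FPKM + 0.1), each library left out, and, chosen after seeing the data, library totals without TMM and protein-coding genes only. Promoter windows, gene positions and biotypes came from RefSeq on GRCh38.p14, matched by symbol or gene ID.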

Additional observations from a re-analysis of the deposited data

Results flagged for a closer look

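Among the 28 related genes, 2 had a DOC effect that differed with AgNPs present from that without AgNPs, by edgeR's interaction test with p adjusted over all 19986 genes. NFE2L1 differed by 0.198 ± 0.05 on the log2 scale (adjusted p = 0.0201) and ZFAND2A by 0.385 ± 0.09 (adjusted p = 0.0246). In both, DOC alone did not pass against BLANK, at 0.01 (adjusted p = 0.931) and 0.10 (adjusted p = 0.339), while COM was above AgNPs by 0.20 (adjusted p = 1.43e-05) and 0.48 (adjusted p = 6.15e-07). Over 22 alternatives the adjusted p ranged from 0.00419 to 0.244 for NFE2L1 and from 0.0203 to 0.109 for ZFAND2A. The call was lost in 9 of them for NFE2L1 and 7 for ZFAND2A. Libraries whose omission ended a call were BLANK replicate 3, AgNPs replicates 2 and 3, DOC replicate 2 and COM replicates 2 and 3 for NFE2L1. They were BLANK replicate 1, all 3 AgNPs replicates, DOC replicate 3 and COM replicate 2 for ZFAND2A.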

How the results depend on the processing

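No called member reversed its direction in any of 23 alternatives, and no scaling moved the median of all genes by over 0.1 on the log2 scale. Where counts of called members moved by over 1.5 times, the cause was not tested. The 15 members lower with DOC became 7 with library totals, 9 in a fit of the groups compared only, 9 with RefSeq rows only, 8 with protein-coding genes only and 5 with either limma fit. In COM against BLANK the 10 higher became 2 with DESeq2 and 2 without the filter, where the 15 lower became 24. In COM against AgNPs the 1 higher became 2 with the groups compared only and 2 with protein-coding genes, and the 13 lower became 6 with RefSeq rows and 8 with protein-coding genes. In COM against DOC the 16 higher became 10 without the filter. In AgNPs against DOC the 4 lower became 2 with RLE factors, 1 with DESeq2, 2 with a replicate block, 1 with the groups compared only and 2 with either limma fit. Leaving out 1 library gave 7 to 14 higher and 5 to 8 lower for AgNPs, 0 to 1 and 6 to 21 for DOC, 6 to 11 and 12 to 19 for COM, 0 to 2 and 5 to 15 for COM against AgNPs, 13 to 17 and 6 to 11 for COM against DOC, 18 to 26 and 1 to 3 for AgNPs against DOC, and 0 for the interaction. In AgNPs against BLANK the calls without the filter were 8 higher and 7 lower. COM had the shallowest libraries, and its floor of 3 counts was the highest, at up to 0.273 CPM.

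With the replicate number as a block, the calls were 12 higher and 5 lower for AgNPs, 0 and 14 for DOC, 10 and 16 for COM, 1 and 9 for COM against AgNPs, 16 and 8 for COM against DOC, and 20 and 2 for AgNPs against DOC. Deviations of same-numbered libraries correlated from -0.29 to 0.236 over 18 pairs, 2 of them over 0.1, and 2 of 12 libraries correlated best with their own number, so the numbers were not taken as pairing.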

Other observations

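Of 62 RefSeq symbols that begin like a member and go on, 7 had rows. Their CPM values were taken of raw library totals, without TMM factors. PSMA3-AS1, an antisense RNA of PSMA3, lay between 97.5 and 118 CPM. PSME3IP1, a protein-coding gene, lay between 73.9 and 85.3 CPM, while PSMC3IP did not exceed 10.2 CPM and PSMG3-AS1, PSMD6-AS2, PSMD7-DT and PSMD14-DT did not exceed 5.61 CPM. Since the strand of counting is unknown, reads of PSMA3 and PSMA3-AS1 cannot be told apart. RefSeq rows held 86.6% of linear counts in BLANK, 85.7% in AgNPs, 84.8% in DOC and 83.8% in COM, and their part in the differences was tested only by the fit on RefSeq rows.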
